A study of Mus musculus with 18 samples.

Results

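A set of 10 genes of the immediate early and heat shock responses was followed through the differentiation of mouse embryonic stem cells toward heart cells: Hspa1a, Hspa1b and Dnajb1 of the heat shock response, and Fos, Jun, Egr1, Atf3, Ier3, Zfp36 and Btg2 of the immediate early response. They were chosen by gene symbol from the array's probe annotation, as 10 of 18193 genes with a probe set of their own, and 15 probe sets measured them. All 10 passed the filter on dim genes, which left 13379 genes to test. RNA was measured on 18 Affymetrix mouse arrays, in 9 groups of 2 arrays. Of these, 16 held cells of the D3 line of mouse embryonic stem cells, differentiated as embryoid bodies (floating aggregates of cells), dissociated on day 5, 6, 7 or 8 and sorted into GFP-positive and GFP-negative fractions. Both fractions carried an Nkx2-5 enhancer fragment and a minimal hsp68 promoter in front of green fluorescent protein (GFP), in cells grown from colonies picked after hygromycin B selection; how many such clones gave these arrays was not stated in the sources used here. For measuring the yield of GFP-positive cells, the study's design describes trypsin as the dissociating enzyme. Each day and fraction had 1 array in batch 1 and 1 in batch 2. The remaining 2 arrays held cardiomyocytes from a separate transgenic D3 clone, in which the alpha myosin heavy chain promoter drove neomycin phosphotransferase, and which had been selected with G418. For the cardiomyocytes, a day, a batch and a sort were not given in the sources used here, so the selection, the clone and the lack of a stated sort cannot be told apart in any comparison with them. No unsorted embryoid body sample was among the arrays. The labels do not say whether batches were separate cultures, so p-values measure the spread between these arrays.

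Immediate early genes are transcribed within minutes of a stimulus, without new protein synthesis, through factors that already sit in the cell, such as the serum response factor at CArG boxes and CREB at cyclic AMP response elements. Several of their products shut the response down again. Heat shock genes are switched on by heat shock factors that bind paired copies of a short GAA motif when proteins misfold, and their products are chaperones. Enzymatic dissociation and sorting of tissue are known to induce both groups in many cell types, and Hspa1a and Hspa1b are also expressed during normal development. The hsp68 promoter is a widely used minimal promoter for testing enhancers, and RefSeq lists hsp68 as an older name of both Hspa1a and Hspa1b. The sequence of the reporter's own promoter fragment was not given in the sources used here.

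The promoters of the 3 heat shock genes are shown because Hspa1a and Hspa1b moved together and the brightest Dnajb1 probe set did not move with them. The Zfp36 promoter is shown because Zfp36 had the lowest adjusted p of the members for its change with time. Each line gives the 250 bases before the annotated start, from RefSeq on build GRCm38.p6, in the direction of transcription. Capitals mark a heat shock element core (GAANNTTC or TTCNNGAA, each the same on both strands) in the first 3 lines and the CArG box in the last.
Hspa1a (chr17:34972157-34972406, minus strand): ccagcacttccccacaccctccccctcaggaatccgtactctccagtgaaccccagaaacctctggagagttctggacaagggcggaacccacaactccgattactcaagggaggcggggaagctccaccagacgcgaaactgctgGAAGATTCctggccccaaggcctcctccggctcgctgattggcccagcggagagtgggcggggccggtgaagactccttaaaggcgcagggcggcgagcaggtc
Hspa1b (chr17:34959239-34959488, minus strand): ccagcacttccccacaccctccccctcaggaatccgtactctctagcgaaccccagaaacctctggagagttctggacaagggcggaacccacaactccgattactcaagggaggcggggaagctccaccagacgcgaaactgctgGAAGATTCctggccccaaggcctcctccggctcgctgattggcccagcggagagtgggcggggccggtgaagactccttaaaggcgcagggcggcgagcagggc
Dnajb1 (chr8:83607925-83608174, plus strand): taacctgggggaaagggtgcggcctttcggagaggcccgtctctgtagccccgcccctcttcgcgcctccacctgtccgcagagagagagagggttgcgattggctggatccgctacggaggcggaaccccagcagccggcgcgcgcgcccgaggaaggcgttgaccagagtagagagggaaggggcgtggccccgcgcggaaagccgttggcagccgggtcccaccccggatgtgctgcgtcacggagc
Zfp36 (chr7:28379229-28379478, minus strand): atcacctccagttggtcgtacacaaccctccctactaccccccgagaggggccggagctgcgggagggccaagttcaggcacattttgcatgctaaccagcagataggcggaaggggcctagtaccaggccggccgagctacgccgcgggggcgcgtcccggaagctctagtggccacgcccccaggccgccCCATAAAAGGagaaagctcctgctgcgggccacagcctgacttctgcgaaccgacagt

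The windows of Hspa1a and Hspa1b, whose genes lie 10120 bases apart, were identical at 247 of 250 bases (98.8%). Each held a heat shock element match whose first base lay at -104 from the start, and a CCAAT box at -67. In the Dnajb1 window shown, the upstream of 2 annotated starts, no such match was found. Jun was the only other member with 1, at -128. Over 32851 mouse promoter windows of the same length, 12.8% held a heat shock element core and 33.8% held CCAAT on either strand. A CArG box was found at -58 in Zfp36 (1.47% of all windows) and the cyclic AMP response element TGACGTCA at -166 in Btg2 (1.55%). The windows of Fos, Atf3 and Ier3 held no match to the heat shock element core, the CArG pattern or TGACGTCA, and Egr1 was not analysed here. Exact patterns within 250 bases were searched, so variant or more distant elements were not counted. A match is a description of the letters in these windows, and its part in the signals was not tested.

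Hspa1a and Hspa1b encode near-identical inducible HSP70 chaperones, so the array cannot fully tell their transcripts apart. The signal of Hspa1a in GFP-positive cells was 53 and 23.4 on day 5 in batches 1 and 2, and 71.1 and 19.4 on day 6. On day 7 it was 1151.8 and 68.3, and on day 8 it was 931.8 and 1026.3. Of the 4 late GFP-positive arrays, 3 were therefore far above all early ones. The batch 2 array of day 7 was just below the highest early array, of batch 1, but above both early arrays of batch 2. In GFP-negative cells the signal of Hspa1a was 40.3 and 61.1 on day 5, 29.8 and 53.4 on day 6, 215.5 and 67.8 on day 7, and 173.0 and 138.1 on day 8. The 4 late GFP-negative arrays all lay above the 4 early ones, at a lower level than the high GFP-positive arrays. The 2 cardiomyocyte arrays were at 1397.4 and 1239.8, above all 16 sorted arrays.

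Hspa1b was measured by 3 probe sets with the same pattern. Its signal in GFP-positive cells was 187.4 and 116.7 on day 5, 242.1 and 131.5 on day 6, 1751.3 and 200.7 on day 7, and 1262.4 and 1125.2 on day 8. In GFP-negative cells it was 118.2 and 213.9 on day 5, 101.8 and 94.1 on day 6, 387.3 and 107.8 on day 7, and 228.3 and 251.0 on day 8. Late and early arrays overlapped in both fractions, in GFP-positive cells through the day 7 array of batch 2 alone. That array was above the early GFP-positive arrays of its own batch. Cardiomyocytes had 2255.8 and 2334.5, again the highest. The other 2 probe sets gave 1436.3 and 131.8, and 1886.3 and 192.6, on day 7 in GFP-positive cells, so the gap between the batches was seen by every Hspa1 probe set.

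Dnajb1, the HSP40 partner that feeds clients to HSP70, did not follow on its brightest probe set. Its signal was 1735.7 and 1685.1 on day 5 and 1752.6 and 1732.3 on day 6 in GFP-positive cells, 1443.0 and 1736.7 on day 7, and 1362.5 and 1111.0 on day 8. In GFP-negative cells all 8 arrays lay between 1376.0 and 1895.6, and the cardiomyocytes had 1433.5 and 1369.8. The day 8 GFP-positive arrays were the lowest of all groups. Across the 16 sorted arrays, which share batches and scaling, Hspa1a and Hspa1b had a Pearson correlation of 0.953 with each other on the log2 scale, and of -0.797 and -0.764 with Dnajb1. A second, dimmer Dnajb1 probe set had 164.2 to 282.6 on early and 290.5 to 402.2 on late sorted arrays, which did not overlap (share of all genes not counted). That difference, of the opposite sign, did not pass the threshold (0.48 in GFP-positive cells, adjusted p = 0.0614 by limma).

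**Figure D1:**
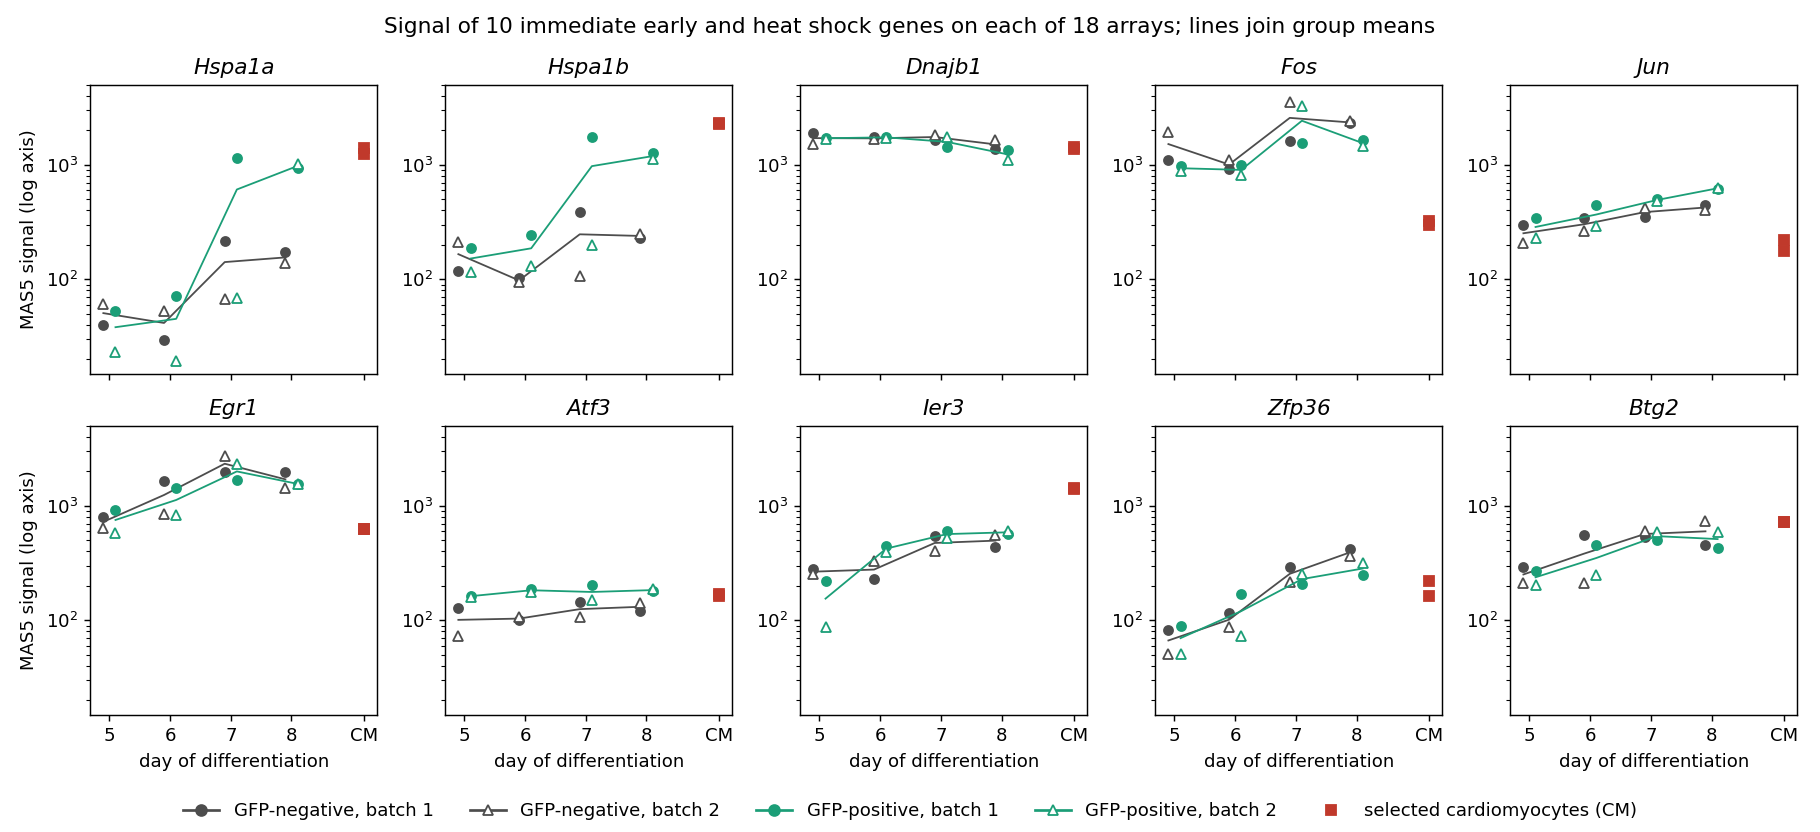
MAS5 signal (log axis) of the brightest probe set of each of the 10 genes, against the day of differentiation for GFP-negative cells (grey) and GFP-positive cells (green), filled circles for batch 1 and open triangles for batch 2, with selected cardiomyocytes (CM, red squares) at the right; lines join the means of 2 arrays. Hspa1a and Hspa1b were higher on days 7 and 8 in GFP-positive cells except on the day 7 array of batch 2 (68.3 and 200.7), and Fos was lowest in cardiomyocytes (300.9 and 324.1).

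Between days 5-6 and days 7-8 in GFP-positive cells, 8 of the 10 genes rose past an adjusted p of 0.05 (limma, Benjamini-Hochberg over all genes), against 19.4% of all genes called in either direction. Hspa1a rose by 3.62 ± 0.67 (SE) on the log2(signal + 6.8) scale (adjusted p = 0.00662), a 12.3-fold change, and Hspa1b by 2.33 ± 0.54 (adjusted p = 0.0128). Zfp36, Ier3, Fos, Egr1, Btg2 and Jun rose by 1.48, 1.22, 1.03, 0.97, 0.88 and 0.79. Dnajb1 had -0.30 ± 0.11 (adjusted p = 0.063) and Atf3 0.05 ± 0.18 (adjusted p = 0.864). In GFP-negative cells 5 of 10 rose, against 12.5% of all genes: Zfp36 by 1.88 ± 0.26 (adjusted p = 0.00414), Egr1 by 1.09, Fos by 0.97, Btg2 by 0.96 and Ier3 by 0.82. There Jun had 0.55 ± 0.18 (adjusted p = 0.0592, and 0.027 with batch as a block), Hspa1a 1.48 ± 0.67 (adjusted p = 0.159), Hspa1b 0.80 ± 0.54 (adjusted p = 0.357), Atf3 0.32 ± 0.18 (adjusted p = 0.243) and Dnajb1 -0.07 ± 0.11 (adjusted p = 0.713).

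The 4 late arrays lay above the 4 early ones for 5 members in GFP-positive cells (Fos, Jun, Egr1, Ier3 and Zfp36), where 18.3% of all genes did not overlap in either direction. In GFP-negative cells this held for 4 members (Hspa1a, Jun, Ier3 and Zfp36), against 13.0% of all genes. The count of members called depended on single arrays. In GFP-positive cells it dropped to 3 when the GFP-positive sample of day 6, batch 2 was left out (Hspa1b then had an adjusted p of 0.062), to 4 for that of day 5, batch 2, and to 5 for day 7, batch 1 or day 8, batch 2. In GFP-negative cells it dropped to 1 when the GFP-negative sample of day 6, batch 2 was left out, to 2 for day 5 or day 8, batch 2, and to 3 for day 6, batch 1 or day 7, either batch. Hspa1a passed in GFP-negative cells when either GFP-positive array of day 7 was left out, with its rise unchanged at 1.48. Those arrays do not enter that rise, and only the spread that the test pools over all groups was altered. Hspa1a, Ier3 and Zfp36 stayed past the threshold in GFP-positive cells whichever of the 18 arrays was left out, and so did Zfp36 in GFP-negative cells. Within batches, with 4 arrays a fraction, the rise in GFP-positive cells was 0.86 and 2.09 for Zfp36 and 0.89 and 1.55 for Ier3 in batches 1 and 2, and none of these 4 values passed the threshold (adjusted p between 0.0622 and 0.205).

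The scaling of the arrays bears on this comparison. As deposited, 58.5% of the genes called in GFP-positive cells were higher on late days, and the median of all genes was 0.09. With array medians set equal that median was -0.29 and 14.4% of called genes were higher, and after quantile normalization -0.04 and 46%. In GFP-negative cells the higher share was 58%, and 34.8% with equal medians. With equal medians 5 members were called in GFP-positive cells, against 34.2% of all genes: Hspa1a, Hspa1b, Ier3 and Zfp36 were higher and Dnajb1 had -0.73 (adjusted p = 0.00447). In GFP-negative cells 2 were called, Egr1 and Zfp36, against 12.3% of all genes. Marker sums of several cell types moved with time beside these rises. In GFP-positive cells 10 endoderm markers summed to 260.3 to 6225 on early and 7140 to 20802 on late arrays, and 12 cardiomyocyte markers to 1397 to 9830 and 11845 to 19968, so neither overlapped. In GFP-negative cells 10 fibroblast markers summed to 694.4 to 4342 on early and 3610 to 20823 on late arrays. Over 10 blood markers the sum was 1127 to 19966 on early and 21992 to 24190 on late GFP-positive arrays, and 519.1 to 26391 and 27997 to 32409 on GFP-negative ones. Over all sorted arrays, the 3' over 5' ratio of the Gapdh control probe sets had a median of 1.42 on late and 1.23 on early arrays. For the Actb control probe sets the median was 1.67 on both. Pluripotency markers (10 measured) summed to 297.2 to 9852 on early and 438.1 to 885.8 on late sorted arrays, and to 123.0 to 148.8 in cardiomyocytes. Neural markers (10 measured) summed to 238.7 to 2045 on early and 279.7 to 518.1 on late sorted arrays, and to 680.1 to 714.3 in cardiomyocytes. In cardiomyocytes 8 of these 10 were below the median signal on both arrays, all but Tubb3 (388.7 and 425.1) and Nes (258.2 and 188.9). The part of these marker sums and ratios in the members' rise was not tested. In a bulk sample, more cells of a type and more RNA per cell cannot be told apart.

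**Figure D2:**
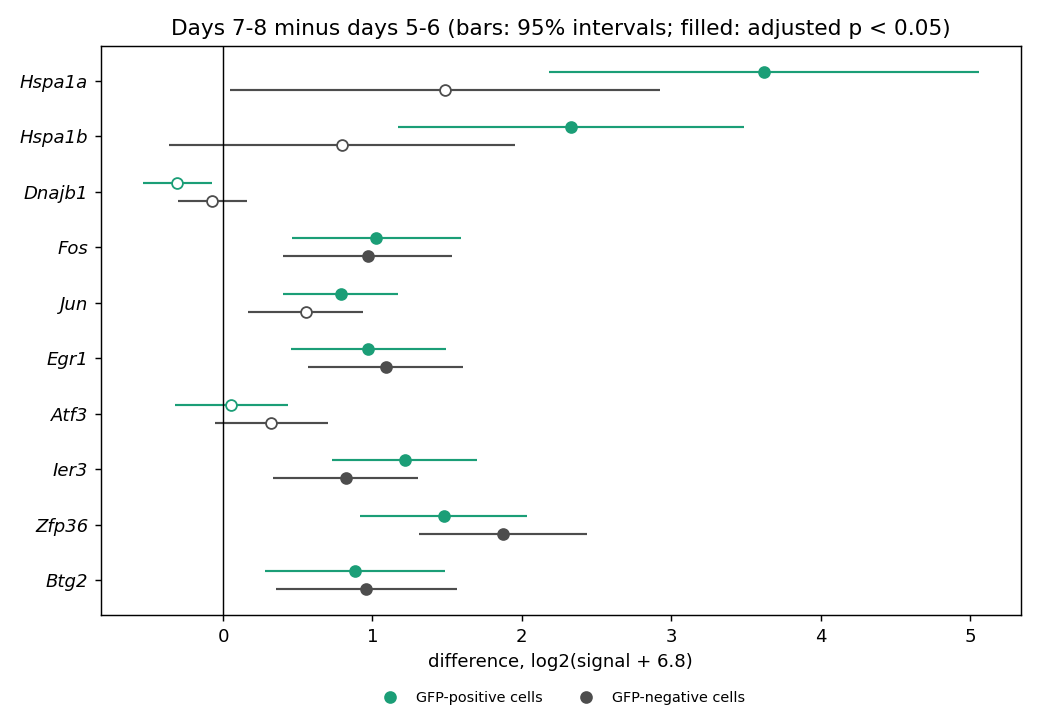
Difference between the means of days 7-8 and days 5-6 in log2(signal + 6.8), with 95% intervals from limma, for each gene in GFP-positive (green) and GFP-negative cells (grey), 4 arrays against 4; filled points had an adjusted p under 0.05. Hspa1a (3.62) and Hspa1b (2.33) had the widest gap between the fractions, and Dnajb1 lay at or below 0 in both.

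Whether the rise differed between the fractions was tested directly. For Hspa1a the rise in GFP-positive cells exceeded that in GFP-negative cells by 2.14 ± 0.94 (adjusted p = 0.359) and for Hspa1b by 1.53 ± 0.76 (adjusted p = 0.427), and 0 of the 10 genes passed the threshold, against 0.142% of all genes (19 genes, and 142 with batch as a block). At an unadjusted p, Hspa1a had 0.0408. With the GFP-positive sample of day 7, batch 2 left out, the difference for Hspa1a was 3.12 (adjusted p = 0.0361). That array also had the lowest summed endoderm marker signal of the 4 late GFP-positive arrays, 7140 against 16457 to 20802 on the other 3, and the lowest for cardiomyocyte markers, 11845 against 16002 to 19968. It was also the lowest of the 4 for endothelial markers (4568 against 5715 to 8206). The same held for pluripotency markers (438.1 against 562.8 to 699.7) and neural markers (279.7 against 407.4 to 518.1). Single genes of these last lists went both ways. Sox2 had 51.1 against 174.6 to 307.8, but Tdgf1 had 284.5, above both day 8 arrays (170.1 and 179.4). Otx2 had 60.1 against 108.0 to 136.2, but Tubb3 was highest on that array, at 17.2 against 2.3 to 5.2. For fibroblast and blood markers that array was not the lowest. In the cardiomyocytes, a separate clone selected with G418, 7 of 10 endoderm markers were below the median signal on both arrays. Their sum was 342.8 to 425.5, and Hspa1b was highest there. The part of any of these cell types in the Hspa1 signal, in sorted cells or in cardiomyocytes, was not tested.

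**Figure D3:**
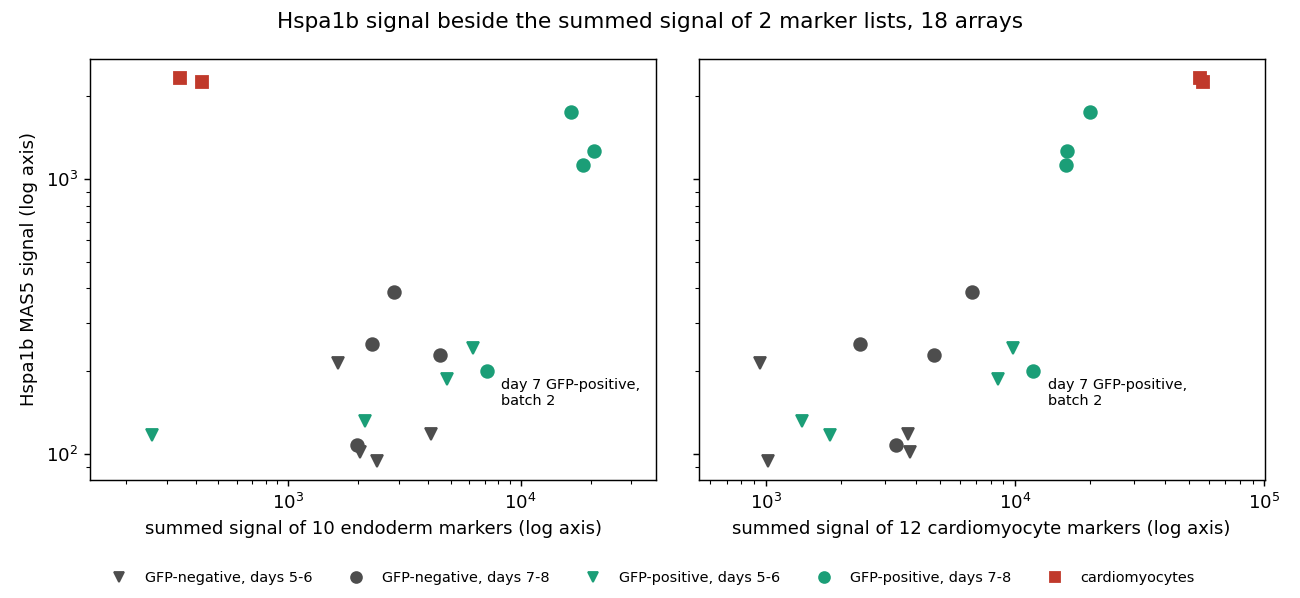
Hspa1b MAS5 signal of each of the 18 arrays against the summed signal of 10 endoderm markers (left) and of 12 cardiomyocyte markers (right), all on log axes; green marks GFP-positive cells, grey GFP-negative cells and red cardiomyocytes, with triangles for days 5-6 and circles for days 7-8. The 3 late GFP-positive arrays with the highest Hspa1b (1125.2 to 1751.3) had endoderm sums of 16457 to 20802. The cardiomyocytes, a separate clone, had high Hspa1b and an endoderm sum of 342.8 to 425.5. The part of these cell types in the Hspa1b signal was not tested.

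Both fractions were dissociated and sorted, and whether the 2 fractions of a day and batch shared a dissociation or a sort was not given in the sources used here. Over the 4 days, 1 of the 10 genes passed the threshold, Atf3, against 2.68% of all genes (358 genes, and 724 with batch as a block). Atf3, a stress-induced factor that represses many of its targets, had GFP-positive signals of 163.6 and 161.5 on day 5, 188.9 and 177.4 on day 6, 204.5 and 149.6 on day 7, and 179.8 and 187.8 on day 8. The GFP-negative signals were 128.3 and 73.7, 100.6 and 106.6, 144.6 and 106.0, and 120.7 and 142.2. All 8 GFP-positive arrays lay above all 8 GFP-negative ones, as for 0.359% of all genes in either direction. The difference was 0.61 ± 0.12 (adjusted p = 0.0229), with 0.56 in batch 1 and 0.66 in batch 2, and the GFP-positive member of the pair was higher in 8 of 8 pairs (exact sign-flip permutation test, two-sided p = 0.00781, the smallest 8 pairs allow). The call was lost when any of 6 arrays was left out, with adjusted p up to 0.0689: in batch 1, GFP-positive cells of days 6, 7 and 8 and GFP-negative cells of day 6, and in batch 2, GFP-negative cells of day 7 and GFP-positive cells of day 8. It was also lost with equal array medians (0.54, adjusted p = 0.0679). Summed over 12 endothelial markers, GFP-positive arrays had 3889 to 8206 and GFP-negative arrays 1076 to 2053. The cardiomyocytes, a separate clone selected with G418, had endothelial sums of 346.3 to 351.7 and Atf3 signals of 163.5 and 168.5. The part of endothelial cells in the Atf3 signal of the sorted fractions was not tested.

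Jun, the AP-1 subunit, also favoured the GFP-positive side in 8 of 8 pairs (exact p = 0.00781), by 0.33 ± 0.13, but its adjusted p was 0.178 across all genes. Its GFP-positive signals were 344.7 and 229.4 on day 5, 442.5 and 294.6 on day 6, 507.6 and 479.8 on day 7, and 619.3 and 630.5 on day 8. The GFP-negative signals were 298.8 and 206.9, 342.9 and 263.1, 350.7 and 423.5, and 445.8 and 403.9. On days 7 and 8 the 4 GFP-positive arrays all lay above the 4 GFP-negative ones, and the share of all genes with such a gap was not counted. Fos, the partner of Jun in AP-1, had the opposite sign, -0.37 ± 0.19 (adjusted p = 0.305), with a positive difference in 1 of 8 pairs (exact p = 0.0312). Hspa1b was higher in 7 of 8 pairs, by 1.13 ± 0.38 (exact p = 0.0312, adjusted p = 0.133), and Hspa1a in 6 of 8, by 0.83 ± 0.47 (adjusted p = 0.367). Their differences were 1.61 and 1.55 in batch 1 but 0.65 and 0.12 in batch 2. With the GFP-positive sample of day 7, batch 2 left out, both passed the threshold, at 1.51 (adjusted p = 0.011) and 1.33 (adjusted p = 0.0403), and the members called became 3. The other 5 genes had differences between -0.11 and 0.06, with adjusted p of at least 0.527. The 10 exact tests were not adjusted among themselves.

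On single days 0 of 10 members passed the threshold. The share of all genes called was 0.0149% on day 5, 0% on day 6, 0% on day 7 and 2.58% on day 8, with 324 and 1135 genes at an unadjusted p under 0.05 on days 6 and 7. On day 5 Hspa1a and Hspa1b were higher in GFP-positive cells in batch 1 (0.34 and 0.64) and lower in batch 2 (-1.17 and -0.84). The mean difference was -0.41 ± 0.94 for Hspa1a and -0.10 ± 0.76 for Hspa1b. On day 8 it was 2.61 ± 0.94 for Hspa1a (adjusted p = 0.163) and 2.28 ± 0.76 for Hspa1b (adjusted p = 0.13). When either GFP-positive array of day 7 was left out, these day 8 differences passed the threshold, but the differences themselves did not change. No day 7 array enters them, and only the spread that the test pools over all groups was altered. Among the members, unadjusted p-values were lowest for Atf3 on days 5 and 6 (0.0143 and 0.00748) and for Hspa1b on day 8 (0.01).

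**Figure D4:**
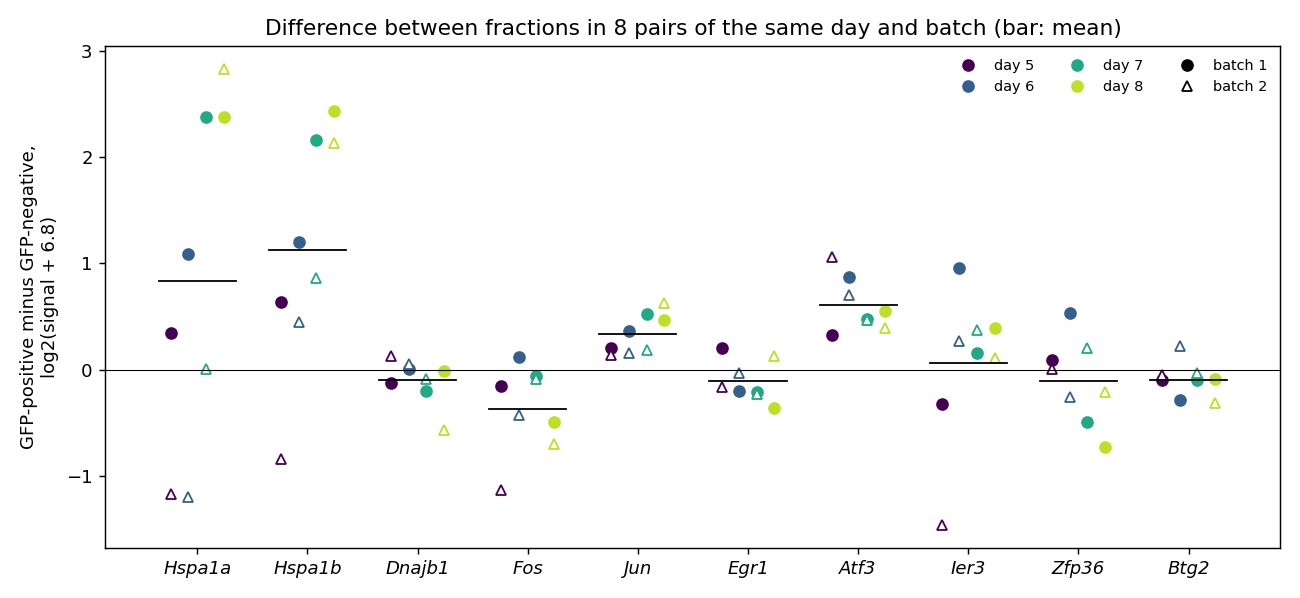
GFP-positive minus GFP-negative difference in log2(signal + 6.8) for each gene in each of 8 pairs of arrays of the same day (colour) and batch (circle, batch 1; triangle, batch 2), with a bar at the mean. Atf3 and Jun lay above 0 in all 8 pairs, and Hspa1a ranged from -1.20 to 2.83.

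In the sorted cells Fos had GFP-positive signals of 985.2 and 886.4 on day 5, 996.0 and 814.1 on day 6, 1563.6 and 3301.3 on day 7, and 1635.3 and 1469.4 on day 8. Its GFP-negative signals were 1096.8 and 1945.0, 914.8 and 1101.4, 1632.1 and 3521.8, and 2302.2 and 2398.3. On day 7 the batch 2 array stood well above the batch 1 array in both fractions. Egr1, a zinc finger factor induced through the serum response factor, had 577.2 to 929.9 on the 4 sorted arrays of day 5. It had 827.3 to 1644.9 on those of day 6, 1693.8 to 2713.1 on day 7 and 1427.3 to 1985.6 on day 8. The day 7 arrays thus lay above those of days 5 and 6, and the day 8 arrays above day 5 but not day 6. The share of all genes with such gaps between days was not counted.

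Zfp36, Ier3 and Btg2 rose from early to late days in both fractions. Zfp36, which encodes tristetraprolin and marks inflammatory messenger RNAs for decay, was between 50.8 and 88.5 on the 4 arrays of day 5, between 72.3 and 168.6 on day 6, between 206.6 and 292.3 on day 7, and between 250.4 and 420.7 on day 8. The order by day was the same in both fractions, and the arrays of days 5 and 6 overlapped, as did those of days 7 and 8. Ier3, a regulator of survival signalling, was 221.8 and 87.8 in GFP-positive cells on day 5, 450.2 and 396.5 on day 6, 608.3 and 526.4 on day 7 and 573.1 and 602.8 on day 8. In GFP-negative cells Ier3 had 228.7 to 326.9 on days 5 and 6 and 407.0 to 557.7 on days 7 and 8. Btg2, an antiproliferative gene that p53 also induces, ranged from 203.6 to 552.8 on early and from 429.8 to 742.7 on late sorted arrays, which overlapped through the day 6 arrays of batch 1. With this probe set its rise kept its call in 8 of 18 fits that left out 1 array in GFP-positive cells and in 7 of 18 in GFP-negative cells. A second Btg2 probe set had 195.1 to 389.2 on early and 518.8 to 618.8 on late sorted arrays, with no overlap (share of all genes not counted). Its rise was 1.14 in GFP-positive cells (adjusted p = 0.00369 by limma) and 0.96 in GFP-negative cells (adjusted p = 0.00403).

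The selected cardiomyocytes split the 10 genes. Against all sorted cells 7 passed the threshold, against 52.2% of all genes. Hspa1a, Hspa1b, Ier3 and Btg2 were higher by 3.52 ± 0.71, 3.16 ± 0.57, 1.92 ± 0.24 and 0.86 ± 0.30. Fos, Egr1 and Jun were lower, with differences of -2.23 ± 0.28, -1.05 ± 0.26 and -0.91 ± 0.19. The largest adjusted p of the 7 was 0.0268, for Btg2, which lost its call without either cardiomyocyte array (adjusted p = 0.137 and 0.142). Dnajb1, Atf3 and Zfp36 had -0.20, 0.22 and 0.29 (adjusted p between 0.169 and 0.414). Both cardiomyocyte arrays lay above all 16 sorted arrays for Hspa1a, Hspa1b and Ier3 and below them for Fos, where 39.6% of all genes did not overlap. Of all genes called in this comparison 44.8% were higher in cardiomyocytes, and 55.8% with equal array medians.

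Against GFP-positive cells of days 7-8, the sorted cells with the highest cardiomyocyte marker signal, 4 of 10 passed the threshold, against 43.3% of all genes. Of all genes called, 41.3% were higher, and 70.4% with equal array medians. Fos in cardiomyocytes stood at 0.169 of its late GFP-positive level: its signal was 300.9 and 324.1 in cardiomyocytes and between 1469.4 and 3301.3 in the 4 late GFP-positive arrays (difference -2.56 ± 0.32, adjusted p = 4.94e-05). Egr1 had 622.7 and 626.7 against 1550.4 to 2309.5 (-1.48 ± 0.29, adjusted p = 0.00141). Jun had 219.5 and 175.8 against 479.8 to 630.5 (-1.47 ± 0.22, adjusted p = 0.000188). A second Jun probe set had 291.0 and 279.1 against 427.0 to 512.0, and its difference of -0.72 did not pass (adjusted p = 0.0573). Against all sorted cells that probe set gave -0.28 (adjusted p = 0.362). Ier3 had 1429.3 and 1404.4 against 526.4 to 608.3 (1.29 ± 0.28, adjusted p = 0.00228).

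The Hspa1 genes did not pass in that comparison: Hspa1a was higher by 1.30 ± 0.81 (adjusted p = 0.222) and Hspa1b by 1.44 ± 0.66 (adjusted p = 0.0948), although both cardiomyocyte arrays lay above the 4 late GFP-positive arrays. Such a gap in either direction was seen for 61.8% of all genes and for 7 of the 10 members. With the GFP-positive sample of day 7, batch 1 left out, both differences passed, at 2.28 (adjusted p = 0.00492) and 2.21 (adjusted p = 0.00241). With that of batch 2 left out instead they were 0.31 and 0.66. With equal array medians Hspa1b passed, at 1.85 (adjusted p = 0.0248). Btg2 had 0.46 ± 0.34, Zfp36 -0.40 ± 0.32, Atf3 -0.11 ± 0.21 and Dnajb1 0.01 ± 0.13 (adjusted p between 0.302 and 0.977). The cardiomyocyte arrays also carried 25367 to 25942 in summed signal of 10 fibroblast markers, against 694.4 to 20823 on sorted arrays, and 632.5 to 677.5 over 10 blood markers. All 12 cardiomyocyte markers were measured, with sums of 55516 to 56709 against 953.6 to 19968. Their part in the members' differences was not tested.

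**Figure D5:**
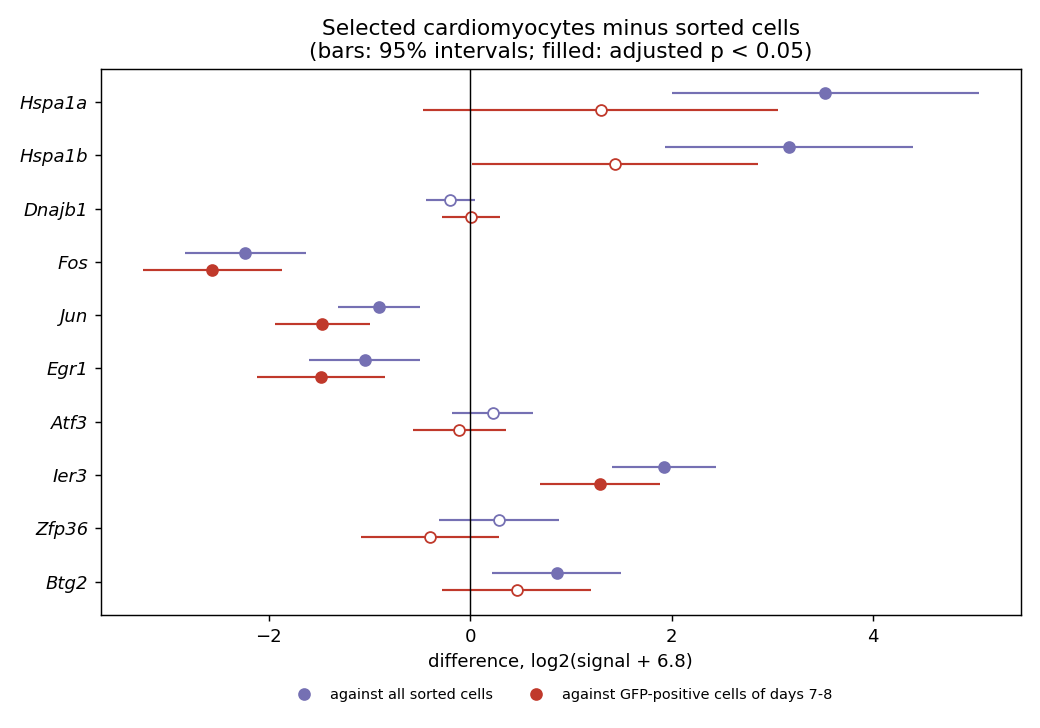
Difference between the 2 cardiomyocyte arrays and sorted cells in log2(signal + 6.8), with 95% intervals from limma, against all 16 sorted arrays (purple) and against the 4 GFP-positive arrays of days 7-8 (red); filled points had an adjusted p under 0.05. Fos, Jun and Egr1 lay below 0 and Ier3 above 0 in both comparisons, while Hspa1a and Hspa1b passed only the first.

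Batch 2 against batch 1 in the sorted cells gave 0 calls among the 10 genes by limma, and 0% of all genes, with 2509 genes at an unadjusted p under 0.05. The batch differences nearest the threshold among the members were those of Jun, -0.25 ± 0.11 (adjusted p = 0.255), and Zfp36, -0.36 ± 0.16 (adjusted p = 0.26). Hspa1a had -0.88 ± 0.43 and Hspa1b -0.71 ± 0.35 (adjusted p = 0.303 and 0.3). This comparison averages over days. On day 5, blood markers in GFP-negative and GFP-positive cells summed to 13893 and 14159 in batch 1. In batch 2 they summed to 519.1 and 1127. In the same order pluripotency markers had 1845.5 and 500.4, then 9852 and 4125. Cardiomyocyte markers had 3728.0 and 8525.5, then 953.6 and 1818.3. Endothelial sums were closer, 1571.6 and 4283.8, then 1303.0 and 3983.2. The part of these sums in the members' values was not tested.

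Of 45 other immediate early genes, 42 were tested. Over the days 2 of 42 were higher in GFP-positive cells and 0 lower: Dusp2, a phosphatase that switches off MAP kinases, by 1.17 ± 0.14 (adjusted p = 0.0011), and Klf4, a zinc finger factor, by 1.05 ± 0.16 (adjusted p = 0.00472). The list's median difference was 0.15, against -0.01 for all genes. On day 8, Klf4, Dusp2 and Nr4a1, an orphan nuclear receptor, were higher by 1.91, 1.62 and 1.69. Between early and late GFP-positive cells 9 of 42 rose and 1 fell, 23.8% of the list against 19.4% of all genes, with Plk2 (1.73), Gadd45b (1.19) and Nfkbiz (1.09) among those that rose, and Myc, the growth-promoting factor, at -1.40 ± 0.29 (adjusted p = 0.00884). The list's median was 0.34, against 0.09 for all genes. With equal array medians 4 rose and 4 fell (median -0.05, against -0.29). In GFP-negative cells 4 rose and 0 fell (9.52%, against 12.5% of all genes): Ptgs2 (1.86), Btg1 (1.09), Egr2 (1.01) and Jund (0.48), with a list median of 0.01 against -0.01. With equal array medians 1 rose and 1 fell. In cardiomyocytes against all sorted cells 9 were higher and 9 lower, 42.9% against 52.2% of all genes, with the chemokine Ccl2 at 3.81 and Gadd45b at 2.81, and Dusp2 at -2.42 and Zfp36l2, a relative of Zfp36, at -2.05. The list's median was 0.02, against -0.10 for all genes, and with equal array medians 14 were higher and 8 lower.

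Other heat shock genes moved in both directions. Of 25 tested, 0 passed between the fractions over the days (list median -0.05). Between early and late GFP-positive cells 4 rose and 9 fell (52%, against 19.4% of all genes), with a median of -0.26 against 0.09 for all genes. The co-chaperones Hsph1, Stip1 and Fkbp4 fell by 0.92, 0.68 and 0.66, and Dnajb4, another HSP40, rose by 1.13 (0.71, adjusted p = 0.0509, with equal array medians). Under that scaling 1 rose and 16 fell. In GFP-negative cells 2 rose, Dnajb4 by 1.13 and Dnajb2 by 1.01, and 4 fell (24%, against 12.5% of all genes, median -0.21). In cardiomyocytes against all sorted cells 9 were higher and 9 lower (72%, against 52.2% of all genes, median -0.24), with 9 and 4 under equal array medians and 9 and 14 after quantile normalization. The small heat shock proteins Hspb1 and Hspb8, which are abundant in muscle, were higher by 4.96 ± 0.44 and 3.25 ± 0.23, and Fkbp4 was at -1.46. Hspb1 had 0.73 ± 0.29 between the fractions over the days (adjusted p = 0.198).

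Of 16 tested kinases and factors that feed into these responses, 1 passed between the fractions over the days. Elk3, a ternary complex factor expressed in endothelium, was higher in GFP-positive cells over the days by 1.51 ± 0.27 (adjusted p = 0.012). Srf, the serum response factor, fell from early to late days by 0.58 in GFP-positive and 0.54 in GFP-negative cells, as 1 of 2 and 1 of 3 that fell. In all 12.5% of the list passed in GFP-positive cells, against 19.4% of all genes, and 25% in GFP-negative cells, against 12.5%. In GFP-positive cells 7 fell with equal array medians. In cardiomyocytes against all sorted cells 4 of 16 were higher and 4 lower (50%, against 52.2% of all genes), among them Creb1 at -1.19. Of 16 genes of the endoplasmic reticulum stress and amino acid response, of which Atf3 is also a target, 0 passed between the fractions over the days (median -0.03). Chac1, a glutathione-degrading enzyme, fell from early to late days by 1.45 in GFP-positive and by 1.36 in GFP-negative cells. Among GFP-positive cells 1 of the 16 rose and 1 fell (12.5%, against 19.4% of all genes). With equal array medians 1 rose and 4 fell, and after quantile normalization 3 rose and 1 fell. In GFP-negative cells 2 rose and 1 fell (18.8%, against 12.5%), with 0 and 1 under equal medians and 4 and 1 after quantile normalization. In cardiomyocytes against all sorted cells 5 were higher and 5 lower (62.5%, against 52.2%). Of 13 p53 targets, 5 rose and 0 fell between early and late GFP-positive cells (38.5%, against 19.4% of all genes), with a list median of 0.55 against 0.09. In GFP-negative cells 4 rose and 0 fell (30.8%, against 12.5%), with a median of 0.28 against -0.01. In cardiomyocytes against all sorted cells 8 were higher and 1 lower (69.2%, against 52.2%). With equal array medians the early to late counts were 1 up and 1 down in GFP-positive cells and 2 up and 0 down in GFP-negative cells. Cdkn1a, the cell cycle inhibitor p21, rose by 1.89 and 1.59 in GFP-positive and GFP-negative cells, the latter with an adjusted p of 0.0517 under equal medians. The median of the p53 list in cardiomyocytes was 1.04, against -0.10 for all genes. These lists held 10 further symbols without a probe set of their own here.

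The genes most alike to each member over the 16 sorted arrays, by Pearson correlation of log2(signal + 6.8) among all tested genes, differed between members. For Hspa1a they were Chrnb1, Rap1gap2 and Rarres1 (0.949, 0.946 and 0.942), and for Hspa1b Rarres1, F11r and Tff3 (0.961, 0.932 and 0.927). Dnajb1 was most like Cdc6, Cenph and Ltv1 (0.939, 0.93 and 0.925). Fos was nearest to Egr2, also an immediate early gene, Gpbp1l1 and Rad52 (0.866, 0.807 and 0.773), and Jun to Diras2, Plk2 and Klb (0.969, 0.969 and 0.957). For Egr1 they were Tmod1, Kel and Add2 (0.925, 0.925 and 0.921), and for Btg2 Myh7b, Tmod1 and Ermap (0.975, 0.973 and 0.96). Atf3 was most like Gngt2, Msn and Grap (0.917, 0.906 and 0.896), Ier3 like Stx7, Tet2 and Prxl2a (0.909, 0.904 and 0.902), and Zfp36 like Myo1f, Ints6l and Dnajb2 (0.969, 0.968 and 0.964). Among the members, Egr1 and Btg2 correlated at 0.892, Zfp36 and Btg2 at 0.874, and Fos and Atf3 at -0.258. These values are descriptions over arrays that share days and batches.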

How the data were processed

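RNA went through 2 rounds of amplification with an oligo dT primer, per the labels' protocols. The deposited values are signal intensity made by the authors on a linear scale with GCOS 1.4 and MAS5, per the submitters' processing notes, and the trimmed mean of every array (2% left out at each end) lay between 150.0008 and 150.0012. Array medians were 18.2 to 29.3. Precision is limited by the number of arrays. The build and probe summary options were not given in the sources used here.

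The 45101 probe sets included 64 controls, 9160 with no gene symbol and 932 with several, all dropped. For 34741 of the rest an Entrez identifier allowed the symbol to be updated (0 changed). A gene took its brightest probe set, of type x only where no other existed, and was tested if 2 or more arrays reached the median signal, 22.5. Group means of log2(signal + 6.8), the offset being the 25th percentile, entered limma 3.58.1 (R 4.3.3), using a variance trend and 9 residual degrees of freedom, with Benjamini-Hochberg adjustment over all genes at 0.05. The fit was tested on simulated data. Plots used Python 3.11.15 and matplotlib 3.10.9.

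The batch number in the labels marks arrays of 1 batch and so pairs them. Batch differences across genes correlated between -0.183 and 0.653 over 28 pairs of groups, with 13 over 0.1. Members and lists were chosen with earlier results of these data known. Besides the 10 members, genes named are up to 4 per list and comparison past the threshold with the lowest p, or else the 2 lowest, and the 3 most alike to each member, and part of these are printed. The lists held other immediate early genes, other heat shock genes, upstream kinases and factors, stress of the endoplasmic reticulum, and p53 targets, with markers of 7 cell types as sums. Alternatives were the offset, scaling, filter, probe set, variance trend, batch, the sorted arrays alone and each array left out.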

Additional observations from a re-analysis of the deposited data

Results flagged for a closer look

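Of 40 sets of 4 arrays tested (each member on early or late days in a fraction), 2 had an array standing apart, and chance flags about 1 in 20. Both were the day 7 GFP-positive array of batch 2. For Hspa1a it was the lowest of the late GFP-positive arrays, with a signal of 68.3 and a gap of 0.923 of the log2 range (Dixon's 95% criterion). For Fos it was the highest of these arrays, with a signal of 3301.3 and a gap of 0.868.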

How the results depend on the processing

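With 2 arrays a group and amplified RNA, members with small differences cannot be separated from those without any. The count of members called over the days was 1, and 0 with equal array medians, 2 in batch 1 alone, 0 in batch 2 alone and 0 to 3 when an array was left out. From early to late days it was 8 in GFP-positive cells, and 5 with equal medians, 2 and 1 in batch 1 and batch 2 alone and 3 to 8 without 1 array. In GFP-negative cells it was 5, and 2 with equal medians, 3 from the sorted arrays alone, 1 in batch 2 alone and 1 to 6 without 1 array. Without 1 array the counts were 0 to 1 on day 5 (1 without GFP-positive cells of batch 1), 0 to 2 on day 8 and 0 to 1 for the difference of the changes. In cardiomyocytes they were 6 to 7 against all sorted cells and 4 to 6 against late GFP-positive cells. With batch as a replicate block the members called were 1, 8, 6, 7 and 4 in these comparisons (over the days, late against early in GFP-positive and in GFP-negative cells, and both cardiomyocyte ones). Jun in GFP-negative cells was the only member whose call changed.

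Values that changed sign belonged to members not past the threshold. With quantile normalization Atf3 from early to late in GFP-positive cells was -0.06, and against late GFP-positive cells the cardiomyocytes had -0.11 for Dnajb1 and 0 for Atf3. With equal array medians Ier3 over the days was -0.01, Atf3 from early to late -0.36, and in cardiomyocytes Atf3 0.30 and Zfp36 0.01. With all probe sets averaged Dnajb1 was 0.09 and 0.21 from early to late in GFP-positive and GFP-negative cells and -0.11 in cardiomyocytes; with its second probe set alone these were 0.48, 0.50 and -0.23. In batch 2 alone Ier3 over the days was -0.18, Atf3 from early to late -0.01 and Dnajb1 in GFP-negative cells 0.12. Without 1 array, the ranges over the days were -0.10 to 0.22 for Ier3, -0.23 to 0.01 for Egr1, -0.26 to 0.08 for Btg2 and -0.25 to 0.04 for Zfp36. From early to late they were -0.15 to 0 for Dnajb1 in GFP-negative cells and -0.05 to 0.16 for Atf3 in GFP-positive cells. In cardiomyocytes against late GFP-positive cells they were -0.07 to 0.08 for Dnajb1 and -0.22 to 0 for Atf3. The cause was not tested.

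Counts over all genes ranged from 0 (batch 2 alone) to 724 (batch as a block) over the days, 0 to 38 on day 5, 0 to 1 on day 6, 0 to 3 on day 7, 0 to 728 on day 8, 62 to 4580 and 99 to 2400 from early to late in GFP-positive and GFP-negative cells, 0 to 157 for the difference of the changes, 3722 to 6217 for cardiomyocytes against late GFP-positive cells and 0 to 411 between batches.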
